A study of Schizosaccharomyces pombe with 10 samples.

Results

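The loss of Cph2 in the fission yeast Schizosaccharomyces pombe was examined by setting 2 poly(A)-selected RNA sequencing libraries of a cph2 deletion strain (cph2Δ) against 2 libraries of its parent (wt), 4 of the 10 libraries of the study. Both strains are of mating type h- and carry his3 d1, ura4-d18, leu1-32 and ade6-m216 in the dy1779 background. The deletion strain differs by cph2-delta::KANMX, in which a kanamycin resistance cassette takes the place of the gene, and each genotype is represented by 1 strain. Cells grew at 30 °C in doubled rich medium (2xYES) and were taken at an optical density between 0.6 and 1.2. The other 6 libraries came from cph1Δ, made in the same parent with cph1-delta::KANMX, from wt2, an h- strain with no auxotrophic allele listed, and from set2Δ (h- set2:null:KANMX), made from wt2. All 4 libraries named in the rule were found in the count table, and all 7268 annotated genes were considered, of which 5067 had enough counts to be tested.

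Cph1 and Cph2 are PHD finger proteins of Clr6 complex II, a histone deacetylase assembly related to Rpd3S of budding yeast. The complex holds the deacetylase Clr6, the scaffold Pst2 and the chromodomain protein Alp13, and is known for removing acetyl groups from histones in the bodies of transcribed genes. The methyltransferase Set2 marks histone H3 at lysine 36 in such genes, and loss of either activity is known to permit transcription from within genes. Poly(A) RNA counted per gene, without regard to strand, sums full-length and internal transcripts.

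The cph2 gene itself (SPAC2F7.07c, chromosome I, 544127 to 546240) had 1356 and 1070 counts in wt and 70 and 28 in cph2Δ. These counts correspond to 134 and 113 CPM in wt and 6.95 and 2.37 CPM in cph2Δ, so that 3.77% of the parent's level was left (log2 fold change -4.75 ± 0.39, adjusted p = 0.00039 by the quasi-likelihood test of edgeR, adjusted after Benjamini and Hochberg over all genes tested). CPM are counts scaled to a common library size, levels are given for replicate 1 and then replicate 2, and each log2 fold change (cph2Δ minus wt) is followed by its standard error with n = 2 libraries per group. A fold moved by over 1.5 times, its log2 value going to -5.70 for cph2 without cph2Δ replicate 1. The marker ura4, which ura4-d18 removes, was at 0 counts in all 4 libraries, and leu1 (-0.14) and ade6 (-0.39) were not called. The libraries held 10101062 and 11213099 counts in wt and 9883590 and 13051467 in cph2Δ. The 10 genes with most counts took 6.93% and 6.98% of the counts in wt but 7.48% and 10.1% in cph2Δ, and replicate 2 of cph2Δ lay farther from the centre than replicate 1 on the first 2 principal components, which held 31.2% and 23.6% of the variance. Replicates differed beyond counting error in both groups (chi-square per degree of freedom 81.1 in wt and 93.7 in cph2Δ). The fit estimated 1 spread shared by all 5 groups of the 10 libraries (5 residual degrees of freedom), and standard errors and p-values rest on it. The labels give no separate cultures for the replicates, so p-values measure only the spread between libraries within these groups.

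Genes past the test were mostly higher without Cph2. Of the 5067 genes tested, 310 differed at an adjusted p under 0.05, which is 6.12% of those tested. The level was higher for 264 genes (5.21%) and lower for 46 (0.908%). A change of at least 2-fold was reached by 128 of the higher genes (2.53%) and by 32 of the lower ones (0.632%). Of the rises, 136 were under 2-fold, and the median rise was 0.99 on the log2 scale. In 27.9% of all tested genes both cph2Δ libraries were above both wt libraries, and in 22.0% both were below. All 310 called genes had both cph2Δ libraries beyond both wt libraries, so this separation adds no support to a call named below. Coding genes made up 255 of the higher and 38 of the lower genes, and non-coding RNAs 7 and 8. The count depended on single libraries: 64 genes were called without wt replicate 2, 91 without cph2Δ replicate 2, 437 without cph2Δ replicate 1 and 250 without wt replicate 1. The lower genes numbered 10, 5, 178 and 63 in that order, and the higher ones 54, 86, 259 and 187. The fit with only the 4 libraries compared called 128 genes, 118 of them among the 310. DESeq2 called 548, all 310 included, with 63.0% of them higher against 85.2% in the edgeR fit. A set of 54 genes, 51 higher and 3 lower, passed under all 10 alternatives in which the whole fit was repeated (other scaling, filter, test, block or libraries), and these are named as such below.

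**Figure D1:**
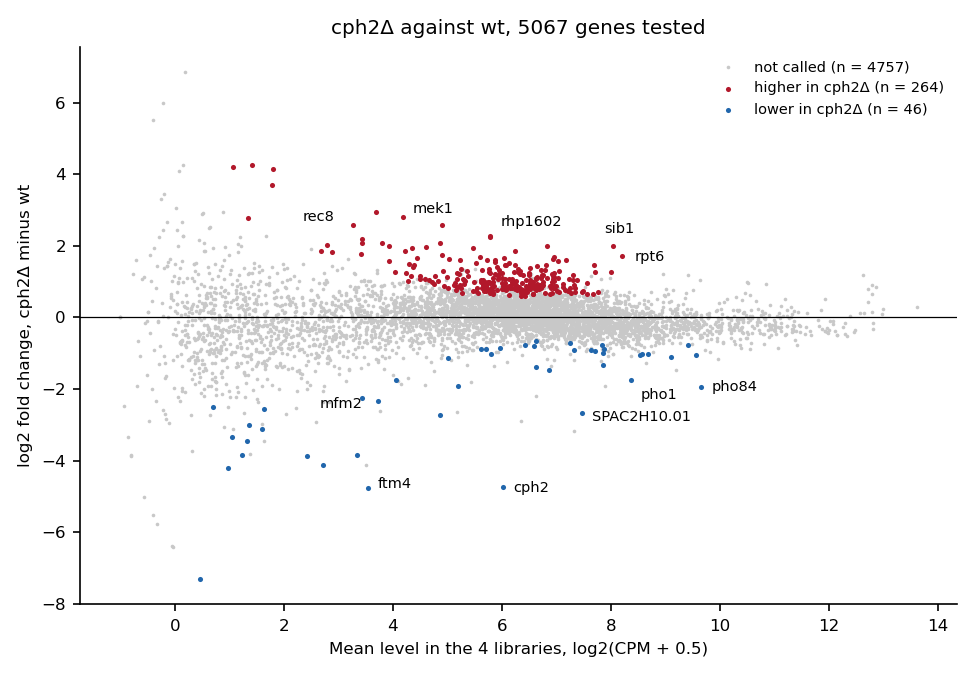
Each point is a gene, with its mean level in the 2 wt and 2 cph2Δ libraries as log2(CPM + 0.5) on the horizontal axis and its log2 fold change (cph2Δ minus wt) on the vertical axis; red points were called higher (264), blue points lower (46) and grey points not called (4757). Red points lie mostly above 16 CPM, and cph2 and ftm4 lie lowest among the labelled genes, both at -4.75.

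Meiotic genes that growing cells keep low were among the largest rises. The gene mek1 (SPAC14C4.03, chromosome I, 5231140 to 5232566), for a kinase that acts on meiotic recombination partners, stood at 6.24 and 2.53 CPM in wt and 26.6 and 35 CPM in cph2Δ. Both deletion libraries lay above both wt libraries, and the change was 2.80 ± 0.41 (edgeR adjusted p = 0.003). For rec8 (SPBC29A10.14, chromosome II, 2568893 to 2570993), which encodes the meiotic cohesin subunit, the levels were 3.66 and 1.48 CPM in wt and 16.5 and 14.7 CPM in cph2Δ (2.59 ± 0.48, adjusted p = 0.01). The levels of spo5 (SPBC29A10.02, chromosome II, 2536164 to 2538254), for a meiotic RNA-binding protein, were 7.82 and 2.43 CPM in wt and 19.6 and 24 CPM in cph2Δ (2.08 ± 0.50, adjusted p = 0.031). In each of these 3 genes the groups did not overlap, and wt replicate 1 was above wt replicate 2. Transcripts such as these are known to be bound in growing cells by Mmi1, which reads the motif UNAAAC and hands them to the exosome for removal. The 30-base exon stretch with most copies of TNAAAC on the coding strand is shown for each gene to show the copies, in capitals (RefSeq genome and annotation, ASM294v3; rec8 on chrII:2570136-2570165, mek1 on chrI:5232524-5232553 and spo5 on chrII:2538103-2538132, all plus strand).
rec8: TAAAACcatggattgaaaagcTCAAACcat
mek1: TGAAACtcgtattcTCAAACctcTTAAACa
spo5: TCAAACTTAAACcaacaTAAAACctgttag

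The exons of rec8 held 15 copies, or 8.03 per 1000 bases, and 0.113% of the 4408 coding genes searched were as dense or denser. The exons of spo5 held 14 copies (6.99 per 1000 bases, 0.34% as dense) and those of mek1 5 copies (3.74 per 1000 bases, 4.9% as dense). A stretch of 30 bases with at least 3 copies was present in 0.181% of all coding genes searched, and one with at least 2 copies in 10.4%. Among the coding genes that rose these shares were 0.784% and 20%, and these genes were longer, with a median exon length of 3036 bases against 1856 over all tested coding genes. The part of length was not tested. The share of 0.784% includes mek1 and spo5, each with 3 copies in the stretch shown, so it is not a result separate from them. Over the 255 coding genes that were higher, the median was 1.95 copies per 1000 bases against 1.64 over all searched. A match describes letters only. Genes that did not pass were dense in it as well: crs1 held 7.9 copies per 1000 bases (0.136% as dense), ssm4 6.3 (0.476%) and mei4 4.96 (1.41%), while spo2, which rose, held 0. Other known Mmi1 targets were less clear: ssm4 stood at 1.44 and mei4 at -0.06 without passing, and meu10 (-1.31) and crs1 (-1.28) also did not pass.

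As groups, meiotic recombination and pairing genes gave 2 rises and no decrease: of 14 tested members 2 rose, 0 fell and 12 did not pass, with a median log2 fold change of 0.68, against 0.01 over all tested genes, of which 5.21% rose and 0.908% fell. Among meiotic regulators and Mmi1 targets, of 14 tested members 3 rose, 0 fell and 11 did not pass, with a median log2 fold change of 0.06. The rise of pat1 (0.97 ± 0.21) concerns the kinase that holds meiosis back. In spore formation, of 16 tested members 5 rose, 1 fell and 10 did not pass, with a median log2 fold change of 0.59. They were spo2 (11.4 and 8.02 to 24.3 and 52.1 CPM, 1.98 ± 0.36), whose product helps to start the spore membrane, the glucan and chitin synthase genes bgs2 (0.68 ± 0.15), mok12 (1.01 ± 0.24) and chs1 (0.70 ± 0.16), and spo5, while isp3, for a spore coat protein, went from 50.5 and 63.5 to 23 and 7.63 CPM (-1.90 ± 0.49). In the mug and meu families, named for transcripts upregulated in meiosis, of 78 tested members 8 rose, 0 fell and 70 did not pass, with a median log2 fold change of -0.16. These included mug4 (1.99 ± 0.41) and mug184 (1.75 ± 0.20). Of 14 meiosis and sporulation markers 7 were tested, 1 rose (bgs2) and 1 fell (isp3), spo6, mde2, spn5 and dmc1 were at 0 in all 4 libraries, and the summed level of the markers was 186 and 179 CPM in wt and 246 and 207 CPM in cph2Δ. In such bulk samples more cells of a type and more RNA per cell cannot be told apart. Of the calls named here, those of mek1 and mug184 held in all 10 alternatives. The threshold was missed by all the others without wt replicate 2, by all the others except rec8 and mug4 without cph2Δ replicate 2, by all the others except rec8, spo5, spo2 and pat1 without wt replicate 1, and by all the others except rec8, spo5, spo2 and isp3 without cph2Δ replicate 1. Outside these settings the call was lost in the fit of the compared libraries alone for spo5, pat1, bgs2 and chs1, and with robust estimation for isp3. A fold moved by over 1.5 times, its log2 value going to 3.60 for mek1, 3.39 for rec8 and 3.16 for spo5 without wt replicate 1, to 1.44 for spo5 without wt replicate 2, to 1.30 for spo2 without cph2Δ replicate 2, and to -2.90 for isp3 without cph2Δ replicate 1. Counts are uncertain for spo5, mug4, pat1, bgs2, mok12, chs1 and isp3, since exon positions are shared with another gene.

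**Figure D2:**
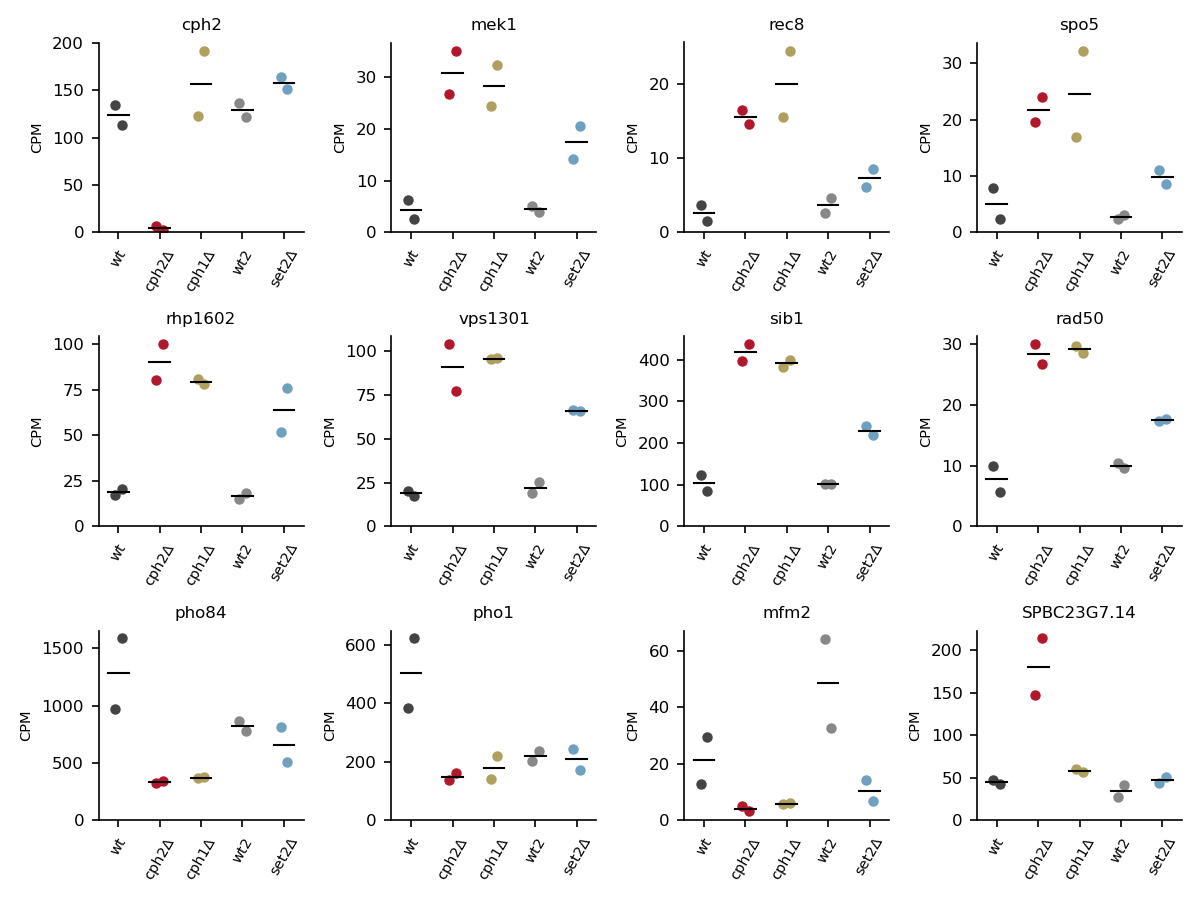
Levels in CPM (linear axes from 0) of 12 genes in each of the 10 libraries, with 1 point per library and a line at the mean of the 2 libraries of a strain. Both red cph2Δ points lie above both wt points for mek1, rec8, spo5, rhp1602, vps1301, sib1, rad50 and SPBC23G7.14 and below them for cph2, pho84, pho1 and mfm2.

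Genes for DNA repair and replication contributed many rises. In homologous recombination and repair, of 28 tested members 8 rose, 0 fell and 20 did not pass, with a median log2 fold change of 0.42. The gene rhp1602, for a DNA translocase (systematic name SPBC582.10c, chromosome II, 436090 to 439017), stood at 17 and 20.4 CPM in wt and 80.2 and 99.8 CPM in cph2Δ, with no overlap and a change of 2.27 ± 0.23 (edgeR adjusted p = 0.00074). The gene rdh54, for a translocase that works with the meiotic recombinase, went from 4.95 and 2.95 to 18.8 and 14.7 CPM (2.08 ± 0.37). The level of rad50, which encodes a subunit of the complex that binds broken DNA ends, changed from 10 and 5.59 to 30 and 26.7 CPM (1.86 ± 0.30, adjusted p = 0.0046). Its partners in that complex did not pass, with mre11 at -0.10 and nbs1 at 0.13. The checkpoint kinase gene tel1, counterpart of human ATM, rose by 1.57 ± 0.20, the helicase gene fml1 by 1.47 ± 0.18, the nuclease genes rad13 and rad16 by 1.08 ± 0.19 and 0.84 ± 0.18, and rad54 by 0.88 ± 0.17. The recombination mediator gene rad52 (0.55) did not pass. Of 29 tested genes of the S-phase list (MBF targets and replication), 2 rose, 0 fell and 27 did not pass, with a median of 0.17. They were pol1, for DNA polymerase alpha (1.08 ± 0.15), and cdt1, for the licensing factor (1.47 ± 0.35). Over all tested genes 5.21% rose, and the S-phase list was not read as standing apart from that share.

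Searching the product names for DNA repair, mismatch repair, DNA replication, DNA recombination or DNA polymerase gave 60 tested coding genes, of which 19 rose and 0 fell (31.7%, against 5.21% of all tested genes), with a median of 0.41. This and the other product words were chosen after values had been seen. Among the 19 were cdc20, for the catalytic subunit of DNA polymerase epsilon (75.3 and 66 to 221 and 213 CPM, 1.62 ± 0.18), the mitochondrial mismatch repair gene msh1 (28.3 and 29 to 93 and 81.4 CPM, 1.61 ± 0.21) and the ligase gene lig4 (1.12 ± 0.27). Of 67 genes named as helicases or translocases, 16 rose (23.9%) and 0 fell. Of 12 named for telomeres or shelterin, 5 rose. These were pot1, which binds the single-stranded telomere end (27.5 and 24.5 to 71.5 and 85.5 CPM, 1.59 ± 0.19), rap1 (1.36 ± 0.20), the telomerase gene trt1 (1.03 ± 0.18), tpz1 (0.96 ± 0.21) and ccq1 (0.80 ± 0.17). The genes of this group are long, with a median exon length of 2959 bases in the repair list against 1763 over all tested genes, and length moved with the fold change across the genome (given below). Its part in this result was not tested. All 10 alternatives kept the calls of rhp1602, tel1, fml1, cdc20, msh1, pol1, pot1 and rap1. Significance was lost for all the others without wt replicate 2, for all the others except rdh54, rad50 and cdt1 without cph2Δ replicate 2, for cdt1, tpz1 and ccq1 without wt replicate 1, and for cdt1, lig4 and ccq1 without cph2Δ replicate 1. Other alternatives lost the call in the fit of the compared libraries alone for rad54, rad16, lig4, tpz1 and ccq1. On the linear scale sizes moved by over 1.5 times, the log2 value going to 1.73 for lig4 without wt replicate 1. Because of exon positions shared with other genes, counts of rhp1602, rdh54, rad50, tel1, fml1, rad13, rad16, pol1, lig4, pot1, rap1, tpz1 and ccq1 are uncertain.

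Genes for heterochromatin and RNA interference were higher in part. In the heterochromatin and SHREC list, of 12 tested members 4 rose, 0 fell and 8 did not pass, with a median log2 fold change of 0.59 (5.21% of all tested genes rose). The remodeller gene mit1 (SPBP35G2.10, chromosome II, 981944 to 986422), of the SHREC deacetylase complex, stood at 22.4 and 23 CPM in wt and 67.3 and 79.5 CPM in cph2Δ (1.69 ± 0.24, edgeR adjusted p = 0.0026). Another SHREC gene, clr1, rose by 0.84 ± 0.17, and ccq1, which links SHREC to telomeres, by 0.80 ± 0.17. The methyltransferase gene clr4 stood at 0.95 and swi6, for the HP1 protein, at -0.23, and neither passed. In RNA interference, of 9 tested members 3 rose, 0 fell and 6 did not pass, with a median log2 fold change of 0.85, and both deletion libraries were above both parent libraries in 9 of 9 (27.9% over all genes). Those that rose were the RNA-dependent RNA polymerase gene rdp1 (78.3 and 72.4 to 155 and 182 CPM, 1.16 ± 0.18), the Dicer gene dcr1 (52.8 and 46.5 to 102 and 94.7 CPM, 0.99 ± 0.16) and the silencing factor gene ers1 (1.30 ± 0.24), while ago1, for Argonaute, stood at 0.35. The median exon length was 2961 bases in this list and 2601 in the former, and the part of length was not tested here either.

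By edgeR the other tested genes of Cph2's own complex and set2 did not pass the test. Of the 7 genes of that list, cph2 included, 6 were tested, of which 4 were under 0.05 before adjustment and 3 passed in DESeq2. For pst2 the levels were 123 and 123 CPM in wt and 181 and 191 CPM in cph2Δ (0.60 ± 0.16, edgeR adjusted p = 0.053). The partner gene cph1 stood at 79.3 and 81.2 CPM in wt and 116 and 139 CPM in cph2Δ (0.67 ± 0.19, adjusted p = 0.062). The values were 0.43 ± 0.21 for alp13, 0.29 ± 0.18 for clr6 and 0.48 ± 0.15 for set2, and in all 5 genes both cph2Δ libraries were above both wt libraries (27.9% over all tested genes). In Clr6 complex I, of 10 tested members 1 rose, 0 fell and 9 did not pass, with a median log2 fold change of 0.04, and dep1 was the member that rose (0.90 ± 0.23). Neither of the other deacetylase genes named by the rule passed, with hos2 at -0.17 ± 0.19 and sir2 at 0.34 ± 0.19. Among SAGA and Mediator genes, for coactivator complexes, of 29 tested members 4 rose, 0 fell and 25 did not pass, with a median log2 fold change of 0.31. These were med13 of the Mediator kinase module (30.8 and 31.4 to 108 and 89.6 CPM, 1.66 ± 0.18) and the SAGA genes tra1 (129 and 87.9 to 301 and 300 CPM, 1.47 ± 0.36), spt7 (0.71 ± 0.18) and spt8 (0.64 ± 0.15). Of 30 tested elongation factors, chaperones and remodellers, abo2 (1.30 ± 0.22) and lsk1 (1.04 ± 0.18) rose, with a median of 0.25. Of the 5 tested neighbours of cph2, snf5 rose (0.86 ± 0.20). All 5 had positive fold changes, with a median of 0.49, and both cph2Δ libraries were above both wt libraries in 4. The levels of snf5 were 36.3 and 37.2 CPM in wt, 61.6 and 71.9 CPM in cph2Δ and 39.4 and 50.3 CPM in cph1Δ. The part of position beside the replaced gene was not tested. The numbers of rises in these lists stand beside rises at 5.21% of all tested genes. By edgeR 0 of 9 histone genes passed (6 were under 0.05 before adjustment, and 5 passed in DESeq2), with a median of -0.66 and values from -0.89 to 0.19. Both cph2Δ libraries were below both wt libraries in 8 of them (22.0% over all tested genes), and wt2 minus wt had a median of -0.24 for the 9. In all 10 alternatives mit1 and med13 stayed past the threshold. The threshold was missed by all the others without wt replicate 2, by all the others except rdp1, dcr1, ers1 and abo2 without cph2Δ replicate 2, by clr1, ccq1, tra1, spt8, dep1 and snf5 without wt replicate 1, and by clr1, ccq1, tra1 and spt7 without cph2Δ replicate 1. The call also ended in the fit of the compared libraries alone for clr1, ccq1, spt7, spt8, dep1 and snf5, and with the replicate block for spt7 and dep1. Exon positions are shared with another gene by mit1, clr1, ccq1, rdp1, dcr1, ers1, med13, tra1, spt7, abo2 and lsk1, whose counts are uncertain for that reason.

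Some of the largest rises belong to no list. The exonuclease gene SPBC609.01, of the Dis3-like family (chromosome II, 3155857 to 3161616), stood at 11.1 and 5.7 CPM in wt and 47.2 and 52.9 CPM in cph2Δ (2.57 ± 0.30, edgeR adjusted p = 0.0011). SPBC8E4.05c, for a fumarate lyase, lay at 3.17 and 4.22 CPM in wt and 16 and 17.9 CPM in cph2Δ (2.20 ± 0.32). The aminotransferase gene SPBC1773.13 had 12.1 and 9.6 CPM in wt and 45.5 and 46.9 CPM in cph2Δ (2.09 ± 0.23), and sid1, for a kinase of the septation pathway, 6.53 and 9.81 CPM in wt and 34 and 28.7 CPM in cph2Δ (1.94 ± 0.31). In none of these 4 did the groups overlap. Of the calls named here, those of SPBC609.01, SPBC8E4.05c, SPBC1773.13 and sid1 held in all 10 alternatives. Counts are uncertain for SPBC609.01, SPBC8E4.05c, SPBC1773.13 and sid1, since exon positions are shared with another gene.

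**Figure D3:**
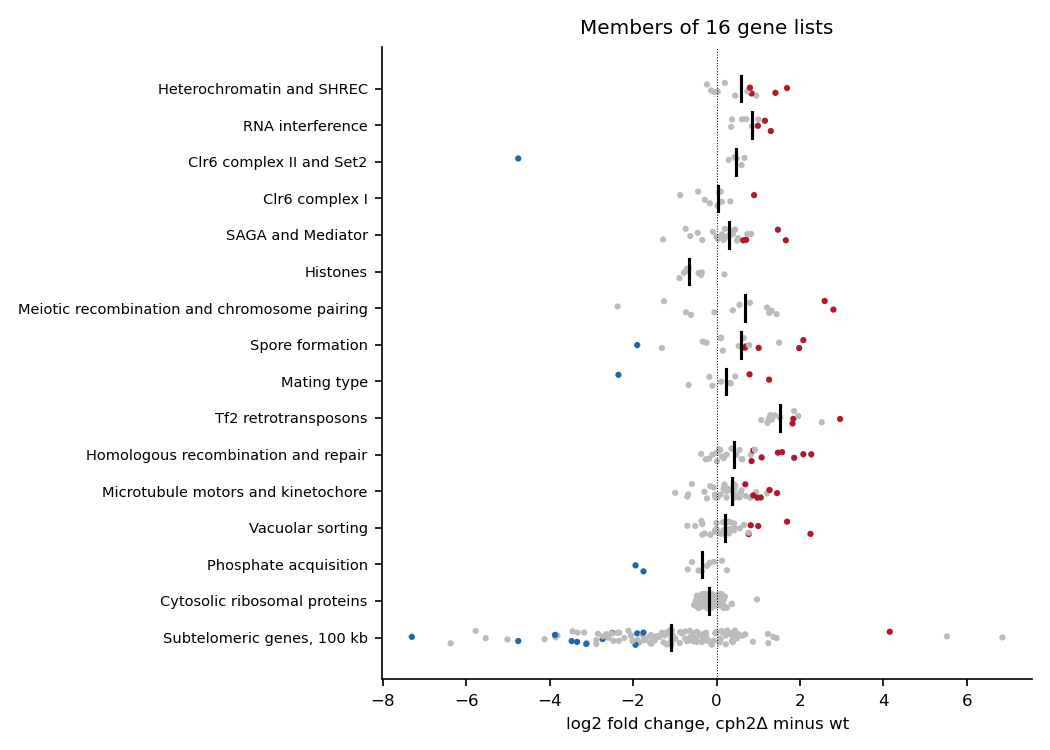
Log2 fold change (cph2Δ minus wt) of every tested member of 16 gene lists, 1 point per gene, red where called higher, blue where called lower and grey where not called; vertical spread within a list is for display, and black bars are medians. Red points lie to the right in most chromatin, repair and transport lists, and the subtelomeric list spreads widest, with a median of -1.08.

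Vacuolar sorting and kinetochore genes were also among those that rose. In vacuolar sorting, of 34 tested members 5 rose, 0 fell and 29 did not pass, with a median log2 fold change of 0.19 (rises made up 5.21% of all tested genes). Both genes of the Vps13 lipid transfer family rose: vps1301 (SPBC21C3.01c, chromosome II, 3788890 to 3798775) stood at 20.5 and 17.5 CPM in wt and 104 and 77.4 CPM in cph2Δ (2.25 ± 0.22, edgeR adjusted p = 0.00059) and vps1302 at 67 and 49.4 CPM in wt and 194 and 182 CPM in cph2Δ (1.69 ± 0.19). The kinase gene vps15 rose by 1.0 ± 0.20, and vps16 and vps3, for vacuolar tethering complexes, by 0.77 ± 0.18 and 0.82 ± 0.19. Among microtubule motor and kinetochore genes, of 46 tested members 6 rose, 0 fell and 40 did not pass, with a median log2 fold change of 0.37. They were the kinesin genes klp5 (0.88 ± 0.16) and klp2 (0.69 ± 0.16), the centromere genes cnp20 (10.9 and 11 to 29.6 and 30.3 CPM, 1.45 ± 0.27), mis15 (0.98 ± 0.23) and spc19 (1.27 ± 0.26), and the cohesin loader gene mis4 (1.06 ± 0.25). In mitosis and cell separation bir1, for survivin, rose by 1.47 ± 0.18 and cut1, for separase, by 0.71 ± 0.19, and klp5 was the remaining call among 23 genes (median 0.34).

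The gene sib1 (SPAC23G3.02c, chromosome I, 854453 to 869704), for the enzyme that assembles the iron carrier ferrichrome, has the longest exon sequence of all tested genes at 15022 bases and stood at 123 and 85.8 CPM in wt and 397 and 438 CPM in cph2Δ (2.00 ± 0.21, edgeR adjusted p = 0.00079). It was the 1 call among 15 iron uptake genes, whose median was -0.32. Among glucose-repressed genes, inv1, for invertase, went from 41.6 and 30.3 to 105 and 101 CPM (1.52 ± 0.18) and agl1, for maltase, from 54.1 and 46.5 to 137 and 93.6 CPM (1.19 ± 0.21), while the median of the 24 genes was -0.08. The glutamate dehydrogenase gene gdh2 (1.37 ± 0.21) and the permease gene per1 (0.90 ± 0.19) rose among 22 nitrogen genes (median 0.26). With 1 of 15, 2 of 24 and 2 of 22 members up, these 3 lists were not read as standing apart from the 5.21% over all tested genes. The eIF2 alpha kinase gene gcn2 (1.11 ± 0.16) was the 1 call among 38 translation factors. In cell wall synthesis mok11 (1.28 ± 0.20), mok14 (0.94 ± 0.18) and gas4 (0.93 ± 0.19) rose among 18 (median -0.18). By product words, 18 of 188 kinase genes rose (9.57%) and 2 fell, 8 of 56 regulators of small GTPases rose (14.3%), and 5 of 164 transporter genes rose (3.05%) and 6 fell. All 10 alternatives kept the calls of vps1301, vps1302, sib1, bir1, inv1 and gcn2. The threshold was missed by all the others without wt replicate 2, by all the others except agl1, gdh2 and mok11 without cph2Δ replicate 2, by vps16, vps3, spc19, cut1, per1, mok14 and gas4 without wt replicate 1, and by vps15, mis4, klp2 and cut1 without cph2Δ replicate 1. Other alternatives lost the call in the fit of the compared libraries alone for vps15, vps16, vps3, klp5, spc19, mis15, mis4, klp2, cut1, per1, mok14 and gas4, with the replicate block for cut1, and with RLE scaling for cut1. Because of exon positions shared with other genes, counts of vps1301, vps15, vps16, mis15, bir1, cut1, inv1, agl1, gdh2, per1, gcn2, mok11 and mok14 are uncertain.

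Beside 5.21% higher and 0.908% lower over all tested genes, further lists gave few calls, which were not read as results about their functions. The single calls were nup132 among 19 nuclear pore genes (0.66 ± 0.17), atg2 among 26 autophagy genes (0.97 ± 0.16), met7 among 54 amino acid synthesis genes (0.97 ± 0.23), thi4 among 8 thiamine genes (0.82 ± 0.17), pdc201 among 16 glycolysis genes (1.46 ± 0.31) and, downward, erg31 among 32 ergosterol genes (-0.91 ± 0.18). Pairs of rises came from prp16 (0.89 ± 0.19) and usp109 (0.76 ± 0.19) among 58 splicing genes, cid16 (1.21 ± 0.17) and mtl1 (0.82 ± 0.16) among 50 RNA surveillance genes, and rpt6 (1.70 ± 0.26) and rpn1302 (0.76 ± 0.19) among 32 proteasome genes. In all 10 alternatives cid16 stayed past the threshold. Significance was lost for all the others without wt replicate 2, for all the others except atg2 and rpt6 without cph2Δ replicate 2, for nup132, met7, thi4, usp109 and mtl1 without wt replicate 1, and for pdc201 and rpn1302 without cph2Δ replicate 1. The call also ended in the fit of the compared libraries alone for nup132, met7, thi4, prp16, usp109, mtl1 and rpn1302, with the replicate block for nup132 and usp109, with RLE scaling for nup132 and rpn1302, and with no filter for nup132. On the linear scale sizes moved by over 1.5 times, the log2 value going to 2.12 for pdc201 without wt replicate 1. Exon positions are shared with another gene by nup132, met7, thi4, prp16, usp109, cid16 and mtl1, whose counts are uncertain for that reason. No member was called by edgeR among 112 cytosolic ribosomal proteins (median -0.19), 85 ribosome biogenesis genes (-0.10), 51 mitochondrial ribosome genes (0.00), 49 respiratory chain genes (-0.22), 28 stress pathway genes (-0.10), 25 oxidative stress genes (0.07), 20 heat shock genes (0.16), 15 flocculin genes (0.13), 10 copper and zinc genes (-0.31) or 9 purine synthesis genes (-0.39). In the same order 1, 7, 5, 8, 7, 7, 4, 3, 3 and 2 members were under 0.05 before adjustment, and 1, 0, 1, 3, 3, 3, 3, 0, 2 and 1 passed in DESeq2. Over all genes, 1192 had an unadjusted p under 0.05 and 6.12% were called, a share at which short lists can hold no call.

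Mating genes moved in both directions. The M-factor pheromone gene mfm2 (SPAC513.03, chromosome I, 2912762 to 2913270), which h- cells use, stood at 12.8 and 29.7 CPM in wt and 5.16 and 3.22 CPM in cph2Δ (-2.35 ± 0.51, edgeR adjusted p = 0.021); wt2 stood 1.19 above wt on the log2 scale. The second pheromone gene mfm1 had 3.86 and 2.11 CPM in wt and 5.86 and 1.78 CPM in cph2Δ and overlapped (0.34 ± 0.67), and mfm3 had no count in the 4 libraries. The adhesion genes map4 and mam3 rose. Levels of map4, known from cells of the plus mating type, were 41.2 and 50.6 CPM in wt and 122 and 98.2 CPM in cph2Δ (1.26 ± 0.20), and those of mam3, of minus cells, 58.6 and 75 CPM in wt and 116 and 115 CPM in cph2Δ (0.79 ± 0.20). The pheromone receptor and transport genes mam2 (0.45 ± 0.47), mam1 (0.32 ± 0.20) and map3 (-0.10 ± 0.41), the precursor gene map2 (-0.67 ± 0.45), the regulator gene map1 (0.11 ± 0.79) and mam4 (-0.17 ± 0.22) did not pass. Summed over 9 markers of minus cells the level was 251 and 339 CPM in wt and 353 and 344 CPM in cph2Δ, and over 4 markers of plus cells 76.1 and 71.8 CPM in wt and 151 and 111 CPM in cph2Δ, in which map4 weighed most. In the pheromone pathway, of 16 tested members 2 rose, 0 fell and 14 did not pass, with a median log2 fold change of 0.20 (all tested genes: 5.21% higher, 0.908% lower). These were the MAP kinase kinase kinase gene byr2 (34.2 and 31 to 106 and 131 CPM, 1.86 ± 0.23) and sxa2, for the peptidase that degrades P-factor (21.6 and 15 to 52.8 and 58.5 CPM, 1.60 ± 0.24). Summed markers of starved cells were at 2222 and 1211 CPM in wt and 1353 and 1333 CPM in cph2Δ, with fbp1 at 0. Of the calls named here, those of map4 and byr2 held in all 10 alternatives. The threshold was missed by all the others without wt replicate 2, by mam3 and mfm2 without cph2Δ replicate 2, by mam3 without wt replicate 1, and by mam3 without cph2Δ replicate 1. Outside these settings the call was lost in the fit of the compared libraries alone for mam3, with the replicate block for mam3, and with RLE scaling for mam3. A fold moved by over 1.5 times, its log2 value going to -1.64 for mfm2 without wt replicate 2. Counts are uncertain for mam3, byr2 and sxa2, since exon positions are shared with another gene.

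Phosphate acquisition genes were among the decreases. The high-affinity phosphate transporter is encoded by pho84 (systematic name SPBC8E4.01c, chromosome II, 4444125 to 4446200). It stood at 972 and 1591 CPM in wt and 327 and 340.2 CPM in cph2Δ (-1.94 ± 0.29, edgeR adjusted p = 0.0033). Its tandem neighbour pho1 (SPBP4G3.02, chromosome II, 4446373 to 4449053), for a secreted acid phosphatase, stood at 386 and 625 CPM in wt and 137 and 163 CPM in cph2Δ (-1.75 ± 0.29, adjusted p = 0.0057). A further transporter gene, pho841 (SPBC1683.01, chromosome II, 132353 to 136275), outside the list and named after its values were seen, stood at 440.2 and 556 CPM in wt and 269 and 213 CPM in cph2Δ (-1.05 ± 0.24, adjusted p = 0.026). In all 3 genes the groups did not overlap. The undeleted wt2 was also below wt, by 0.64 for pho84, 1.20 for pho1 and 2.20 for pho841 on the log2 scale, so that the wt libraries stood highest of the 5 strains at pho84 and pho1. In the list, of 11 tested members 0 rose, 2 fell and 9 did not pass, with a median log2 fold change of -0.35 (0.908% of all tested genes fell), and those that did not pass included tgp1 (-0.06), the regulator gene pho7 (-0.69) and pho4 (-0.23). Pho7 is the zinc finger activator of phosphate genes. A pattern known for it (TCG, 4 bases of any kind, then TTNAA) was searched on both strands of the 250 bases before the RefSeq start (ASM294v3); the upstream regions of 5.82% of 5105 coding genes hold it. It occurred 2 times before pho1 and 1 time before tgp1, and no match was in the window of pho84. The windows of the first 2 are shown with matches in capitals (pho1 on chrII:4447256-4447505, plus strand; tgp1 on chrII:352412-352661, minus strand).
pho1: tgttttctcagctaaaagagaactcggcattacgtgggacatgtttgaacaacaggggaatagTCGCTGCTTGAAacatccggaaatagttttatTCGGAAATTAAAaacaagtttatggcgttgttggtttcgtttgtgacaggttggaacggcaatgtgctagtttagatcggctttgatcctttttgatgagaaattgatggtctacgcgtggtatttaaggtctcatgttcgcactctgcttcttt
tgp1: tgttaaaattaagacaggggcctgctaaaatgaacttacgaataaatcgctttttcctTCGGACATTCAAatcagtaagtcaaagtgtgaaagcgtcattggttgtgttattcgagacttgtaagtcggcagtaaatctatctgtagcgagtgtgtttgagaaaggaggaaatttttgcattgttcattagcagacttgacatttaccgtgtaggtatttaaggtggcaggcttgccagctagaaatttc

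Of these 2 genes with the pattern, pho1 fell and tgp1, at -0.06 ± 0.26, did not pass. Both windows overlap a non-coding RNA annotated in RefSeq, nc-pho1 and nc-tgp1, transcripts known to interfere with the promoter they cross. The window of pho84 overlaps the annotated genes prt2 and SPNCRNA.6616. The gene model of pho1 in the count table starts at 4446373, before the RefSeq start at 4447506, and so covers most of nc-pho1 (RefSeq 4446359 to 4448918). Counts of pho1 therefore sum both transcripts. Both pho84 and pho1 lie within 100 kb of the right end of chromosome II. All 10 alternatives kept the call of pho84. Significance was lost for pho1 and pho841 without wt replicate 2, and for pho841 without cph2Δ replicate 2. Other alternatives lost the call in the fit of the compared libraries alone for pho841. Because of exon positions shared with other genes, counts of pho84 are uncertain.

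For genes near the ends of chromosomes I and II the median lay below wt in cph2Δ, and it did so too in the undeleted wt2. Of 135 tested genes in the outer 100 kb, 11 fell (0.908% over all genes), 1 rose and 123 did not pass, and the median was -1.08. The median in wt2 minus wt was -0.74. Taking log2(CPM + 0.5) of single libraries against the wt mean, the median was -0.33 in cph2Δ replicate 1 and -1.02 in replicate 2. Besides pho84, pho1 and isp3, the genes that fell included ftm4 (chromosome I, 5565881 to 5567337), for a protein with transmembrane helices, with 249 and 172 counts in wt and 10 and 7 in cph2Δ (-4.75 ± 0.96; wt2 minus wt -2.56). The cysteine transporter gene SPBPB10D8.01 stood at 61.7 and 37.4 CPM in wt and 11 and 4.07 CPM in cph2Δ (-2.73 ± 0.43; wt2 minus wt -3.16). The neighbouring genes SPAC186.02c (-3.34 ± 0.55) and SPAC186.03 (-3.12 ± 0.52), for a dehydrogenase and an asparaginase, had 26 and 30 counts in wt and 2 and 4 in cph2Δ and 42 and 46 counts in wt and 8 and 3 in cph2Δ. The rise was that of hry1, with 4 and 2 counts in wt and 57 and 66 in cph2Δ (4.15 ± 1.04). By distance the median was -1.07 at 0 to 25 kb, -1.56 at 25 to 50 kb, -0.58 at 50 to 75 kb and -1.10 at 75 to 100 kb, and 0.02 beyond 200 kb. In the same 4 outer bins the median of wt replicate 2 minus replicate 1 was -0.24, -0.81, -0.46 and -0.32. Few counts lie behind these medians, since the median level was 0.844 to 6.20 CPM in the 4 outer bins against 74.4 CPM beyond 200 kb. Subtelomeric genes held 0.538% and 0.519% of counts in wt, 0.293% and 0.323% in cph2Δ, and 0.408% and 0.331% in wt2.

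**Figure D4:**
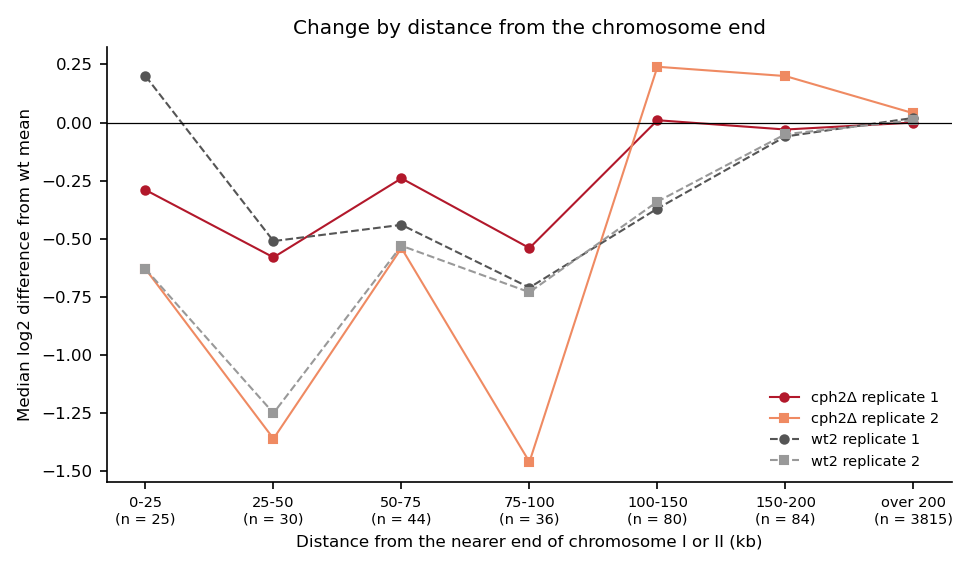
Median difference of single libraries from the wt mean, on the log2(CPM + 0.5) scale, against distance from the nearer end of chromosome I or II in 7 bins, with the number of genes tested below each. Solid lines are the 2 cph2Δ libraries and broken lines the 2 wt2 libraries; between 25 and 100 kb all 4 lie below 0, and beyond 200 kb they lie between 0.00 and 0.04.

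Decreases away from the ends included a transcription factor gene and an F-box gene. The gene SPAC2H10.01 (chromosome I, 5273012 to 5275983), for a transcription factor, had uneven wt levels, with 75.1 and 535 CPM in wt and 56.3 and 39.4 CPM in cph2Δ (-2.67 ± 0.63, edgeR adjusted p = 0.029). The F-box gene pof15 stood at 92.1 and 249 CPM in wt and 72.3 and 50.6 CPM in cph2Δ (-1.48 ± 0.37). For gmh2, a galactosyltransferase gene, the levels were 237 and 423 CPM in wt and 148 and 114 CPM in cph2Δ (-1.33 ± 0.26), and in both of these genes wt2 differed from wt by under 0.1. The lipase-like gene SPAPB1A11.02 (28.2 and 7.6 to 2.18 and 0.339 CPM, -3.85 ± 0.98; wt2 minus wt -1.81), the origin-binding gene abp2 (106 and 178 to 61.2 and 48.1 CPM, -1.37 ± 0.28; wt2 minus wt -1.84) and the transporter gene vsb1 (-1.75 ± 0.42; wt2 minus wt -0.95) were also lower in the undeleted wt2. In all 10 alternatives SPBPB10D8.01 stayed past the threshold. The threshold was missed by all the others except SPAC186.02c and SPAC186.03 without wt replicate 2, by all the others except SPAC186.02c without cph2Δ replicate 2, by hry1 and SPAPB1A11.02 without wt replicate 1, and by hry1, SPAC2H10.01 and pof15 without cph2Δ replicate 1. The call also ended in the fit of the compared libraries alone for SPAC186.02c, SPAC186.03, SPAC2H10.01 and pof15, with the replicate block for pof15 and SPAPB1A11.02, and with robust estimation for ftm4, SPAC2H10.01, pof15 and SPAPB1A11.02. A fold moved by over 1.5 times, its log2 value going to -0.62 for pof15, -0.69 for SPAC2H10.01 and -4.54 for SPAPB1A11.02 without wt replicate 2, to -3.48 for SPAC2H10.01 and -2.61 for SPAPB1A11.02 without wt replicate 1, to -3.60 for SPBPB10D8.01, -4.09 for SPAC186.03 and -5.68 for SPAPB1A11.02 without cph2Δ replicate 1, and to -2.51 for SPAC186.03 and -3.06 for SPAPB1A11.02 without cph2Δ replicate 2. Exon positions are shared with another gene by SPBPB10D8.01, abp2, vsb1, pof15, gmh2 and SPAPB1A11.02, whose counts are uncertain for that reason.

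Retrotransposon copies had higher values without Cph2, and few non-coding RNAs were called. All 13 Tf2 copies had positive fold changes from 1.07 to 2.96 (median 1.52, and -0.13 in wt2 minus wt). Both cph2Δ libraries were above both wt libraries in 12 (27.9% over all tested genes). Called were 3 (5.21% of all tested genes rose), Tf2-11 (4.06 and 1.58 to 22 and 22.1 CPM, 2.96 ± 0.44), Tf2-2 (1.84 ± 0.47) and Tf2-10 (1.82 ± 0.48). These copies are nearly identical, so the reads of single copies cannot be told apart with confidence. Of 25 wtf genes, spore killers that are likewise alike, wtf24 rose (1.24 ± 0.27) and the median was -0.27. Among 599 tested non-coding RNAs 7 rose and 8 fell, with a median of -0.23. SPNCRNA.662 (chromosome I, 584478 to 587656) stood at 2.28 and 2.74 CPM in wt and 9.53 and 11.1 CPM in cph2Δ (2.04 ± 0.38), SPNCRNA.359 at 0.198 and 0.211 CPM in wt and 3.67 and 4.58 CPM in cph2Δ (4.26 ± 0.80) and SPNCRNA.307 at 0.297 and 0.527 CPM in wt and 3.38 and 7.63 CPM in cph2Δ (3.71 ± 0.72). Lower were SPNCRNA.963 (14.3 and 19.7 to 4.57 and 2.54 CPM, -2.26 ± 0.44) and SPNCRNA.1463 (14 and 8.97 to 0.993 and 0.339 CPM, -4.11 ± 0.73). SPNCRNA.37 went from 24 and 11 counts to 0 and 0, at least 13-fold lower taking 3 counts as the group's floor. SPNCRNA.992 went from 3 counts over both wt libraries to 67 in cph2Δ, a ratio of 20.0 with a 95% counting interval from 6.55 to 99.4, and SPNCRNA.1460 from 55 to 3, a ratio of 20.5 (6.65 to 102). Fitted log2 values of the latter, which depend on the prior count, went from -4.21 to -7.97 without cph2Δ replicate 1 and to -3.20 without replicate 2, and that of SPNCRNA.37 from -7.30 to -6.71 without wt replicate 1. Antisense non-coding RNAs numbered 320, and of them 5 rose and 2 fell (median -0.01). Counting was blind to strand and set no option for overlapping reads. By default, reads at exon positions shared with a partner gene are then assigned to neither gene. Of the calls named here, that of Tf2-11 held in all 10 alternatives. Significance was lost for all the others except SPNCRNA.1463 without wt replicate 2, for all the others except wtf24 without cph2Δ replicate 2, for all the others except SPNCRNA.963 and SPNCRNA.1463 without wt replicate 1, and for Tf2-2, Tf2-10 and wtf24 without cph2Δ replicate 1. Outside these settings the call was lost in the fit of the compared libraries alone for Tf2-2, Tf2-10, wtf24, SPNCRNA.662, SPNCRNA.37, SPNCRNA.992 and SPNCRNA.1460, with the replicate block for Tf2-10 and SPNCRNA.1460, and with RLE scaling for Tf2-10. On the linear scale sizes moved by over 1.5 times, the log2 value going to 2.99 for SPNCRNA.307 without cph2Δ replicate 2, to 3.79 for Tf2-11 without wt replicate 1, and to -5.04 for SPNCRNA.1463 without cph2Δ replicate 1. Counts are uncertain for SPNCRNA.662, SPNCRNA.1463 and SPNCRNA.992, since exon positions are shared with another gene.

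Change went with gene length. The coding genes that rose had a median exon length of 3036 bases, those that fell 1655 and all tested coding genes 1856. Of 65 coding genes over 6000 bases, 20 rose (30.8%) and 0 fell, of 309 between 4000 and 6000 bases 51 rose (16.5%), and of 499 between 3000 and 4000 bases 60 rose. Among 539 genes between 500 and 1000 bases 4 rose (0.742%) and 5 fell. The median log2 fold change was 0.53 over 6000 bases, 0.22 from 4000 to 6000, 0.14 from 3000 to 4000 and between -0.10 and 0.03 in the shorter bins. Both libraries showed it, with medians of 0.48 and 0.58 against the wt mean over 6000 bases, where the wt2 libraries had 0.02 and 0.06 and the cph1Δ libraries 0.53 and 0.63. The set2Δ libraries, set against the same wt, had 0.37 and 0.21. The wt replicates differed by -0.01 in that bin. Longer genes also had more counts, with a median level of 152 CPM over 6000 bases against 60.9 CPM between 500 and 1000 bases. The part of level in this result was not tested. Restricted to coding genes that share no exon position, the medians were 0.34 for 21 genes over 6000 bases and 0.33 for 87 genes from 4000 to 6000, against -0.10 for 298 genes from 500 to 1000 bases. This restriction was chosen after the pattern had been seen.

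**Figure D5:**
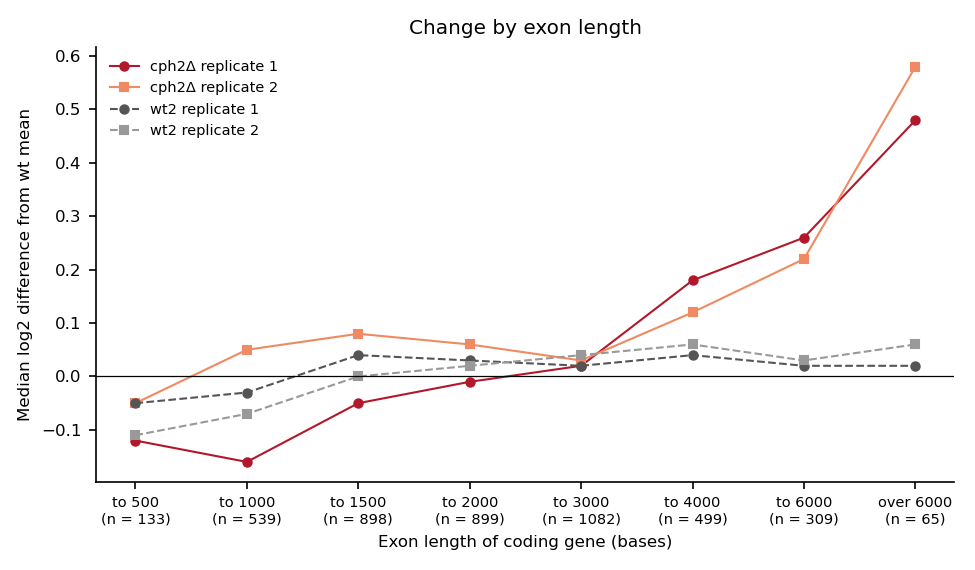
Median difference of single libraries from the wt mean, on the log2(CPM + 0.5) scale, for coding genes in 8 bins of exon length, with the number of genes tested below each. The 2 cph2Δ libraries (solid) climb to 0.48 and 0.58 over 6000 bases, and the 2 wt2 libraries (broken) stay between -0.11 and 0.06 in all bins.

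The longest genes were of varied function. Behind sib1, with exon lengths between 11183 and 14362 bases, came mdn1, for midasin, a ribosome assembly ATPase (1.26 ± 0.21), the glycoprotein gene SPBPJ4664.02 (1.30 ± 0.26) and tra1, while the dynein gene dhc1 (1.21 ± 0.36) and tra2 (1.17 ± 0.33) did not pass. Genes with many exons went the same way: among 79 coding genes with 7 or more exons 20 rose (25.3%) and the median was 0.40. With 1 exon 115 of 2241 genes rose (5.13%), with a median of -0.01. The share was 4.72% with 2 exons, 6.0% with 3 and 7.13% with 4 to 6. Of the 79 genes 17 share no exon position, and 5 of these rose. The part of length in this result was not tested. By level, rises were most frequent between 16 and 64 CPM (104 of 1225, 8.49%) and in the next bin, of 4 times that level (140 of 1852, 7.56%). In the top bin of 203 genes the median was -0.21. The wt replicates differed in that top bin by 0.44, replicate 2 being higher.

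Against the partner deletion cph1Δ few genes differed. Of the genes tested 3 passed (0.0592%), 2 higher (0.0395%) and 1 lower (0.0197%) in cph2Δ, while 15 did so in DESeq2. The first was cph1, deleted in the other strain, and the lower was cph2. The third was SPBC23G7.14 (chromosome II, 2126496 to 2128132), an uncharacterized gene in the interval between mat1 and mat3 on chromosome II. It stood at 48.1 and 42.4 CPM in wt and 147 and 214 CPM in cph2Δ, against 60.1 and 56.5 CPM in cph1Δ, 27.6 and 41.3 in wt2 and 44.5 and 50.7 in set2Δ. The change was 2.00 ± 0.24 from wt and 1.63 ± 0.23 from cph1Δ (edgeR adjusted p = 0.03). The interval holds 12 annotated genes, 6 of them tested. The proteasome gene rpt6 (chromosome II, 2121444 to 2122817) stood at 171 and 107 CPM in wt and 371 and 534 CPM in cph2Δ (1.70 ± 0.26, adjusted p = 0.004) and 151 and 198 CPM in cph1Δ; its difference from cph1Δ, 1.38 ± 0.26, did not pass. The ribosomal gene rpp202, which overlaps SPBC23G7.14, stood at 756 and 1220.1 CPM in wt and 1618 and 2242 CPM in cph2Δ (0.97 ± 0.28, adjusted p = 0.067) and 679 and 506 CPM in cph1Δ. For these 3 genes both cph2Δ libraries lay above all 8 other libraries. The same held for SPNCRNA.388, with 81.9 and 64.1 CPM in cph2Δ and at most 61.7 CPM, in wt2 replicate 2, elsewhere. Against wt, SPNCRNA.388 (0.83 ± 0.24), SPBC23G7.10c (0.62 ± 0.52) and SPBC23G7.13c (2.28 ± 0.85, at most 5.42 CPM) did not pass, and neither did rpp202. A p that misses the threshold does not show that the 2 deletions act alike, and without cph1Δ replicate 1 the count was 26, without cph2Δ replicate 1 it was 22. The call of SPBC23G7.14 against cph1Δ was lost without cph1Δ replicate 1 (1.66, edgeR adjusted p = 0.056), without cph1Δ replicate 2 (1.57, adjusted p = 0.72) and without cph2Δ replicate 2 (1.34, adjusted p = 0.42), and over its other alternatives the adjusted p was 0.048 or lower. Against wt, all 10 alternatives kept the call of SPBC23G7.14. Against wt the threshold was missed by rpt6 without wt replicate 2. Because of exon positions shared with other genes, counts of SPBC23G7.14 and rpp202 are uncertain.

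The effect of cph2 loss differed from that of set2 loss, each against its own parent, at 64 of the genes tested (1.26%), 6 with the cph2Δ effect higher (0.118%) and 58 with it lower (1.14%). Of the 64, 43 lay in the outer 100 kb of chromosomes I and II, and the cph2Δ effect was the lower one in all 43. At SPAC186.03 the cph2Δ libraries had 0.794 and 0.254 CPM against 4.16 and 4.85 CPM in wt (-3.12). The set2Δ libraries had 61.6 and 64.3 CPM against 1.01 and 1.46 CPM in wt2 (5.67), and wt2 minus wt was -1.87. The difference of the effects, most of it from the set2Δ side, was -8.79 ± 0.69 (edgeR adjusted p = 0.00011). In the other direction, myo52, for a type V myosin, stood at 48.2 and 58.9 CPM in wt and 121 and 131 CPM in cph2Δ (1.24 ± 0.17) and at 59 and 64.8 CPM in set2Δ against 60.8 and 67.3 CPM in wt2, a difference of effects of 1.29 ± 0.24 (adjusted p = 0.022). The parents themselves differed at 10 genes (0.197%), among them ura4, which wt lacks. The number of differing effects was 21 without set2Δ replicate 2, 23 without wt replicate 1, 40 without either cph2Δ replicate 2 or wt2 replicate 2, and 97 without cph2Δ replicate 1.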

How the data were processed

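Poly(A)-selected RNA was sequenced on a NovaSeq 6000, per the labels' protocols. The authors deposited raw counts per gene, made with featureCounts (Subread 2.0.1) after alignment with STAR 2.7.10a to ASM294v2, per the submitters' processing notes and the file headers; the command in the header sets no strand option and no option for multi-mapping or overlapping reads. Exon length is another deposited column. RefSeq names matched 6846 identifiers and left 422.

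Libraries were scaled by TMM, genes kept by filterByExpr (2201 left out, with 0.0105% of counts), and 5 groups of 2 fitted together in edgeR 4.0.16 (R 4.3.3) without a block (common biological coefficient of variation 0.211, 5 residual degrees of freedom). Quasi-likelihood F-tests were adjusted by Benjamini-Hochberg, with a threshold of 0.05. Alternatives were RLE scaling, no filter, DESeq2 1.42.0, the compared libraries alone, a replicate block, robust estimation and leaving out each library. Replicate numbers did not pair libraries. The script was tested on simulated counts. Lists and members were chosen with earlier results of these data known. Genes were named by rule: the markers, the 15 largest rises and decreases of at least 5 CPM, up to 5 calls per list and direction (the 2 smallest p where none), the first 5 per direction against cph1Δ and set2Δ, and all tested genes of 2 lists; other names were chosen after values were seen. Some genes are not reported here.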

Additional observations from a re-analysis of the deposited data

Results flagged for a closer look

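A test of the difference between the cph2Δ effect and the set2Δ effect (edgeR's quasi-likelihood test on the interaction, Benjamini-Hochberg adjusted p under 0.05) set apart the genes given here, 5 per direction by smallest p. Toward a higher cph2Δ effect, set2 differed by 4.12 on the log2 scale, as it is deleted in set2Δ. The FAR complex gene csc2 differed by 2.00: it rose in cph2Δ (0.96), wt2 minus wt was 0.75, and set2Δ minus wt2 was -1.05. The gene myo52 differed by 1.29, with 1.24 in cph2Δ and -0.05 in set2Δ. The gene sip1, which encodes an accessory protein of clathrin adaptors, differed by 1.40, with 0.98 in cph2Δ and -0.42 in set2Δ. The glucanase gene agn2 differed by 1.79, with 0.10 in cph2Δ and -1.69 in set2Δ. Toward a lower effect, cph2 differed by -5.03 through its own deletion. SPAC186.03 differed by -8.79, SPAC186.02c by -8.08, SPBPB10D8.01 by -7.32 and the gluconate transporter gene ght3 by -5.34. For these 4 set2Δ minus wt2 was 5.67, 4.74, 4.59 and 4.25, and wt2 minus wt was -1.87, -1.76, -3.16 and -1.62.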

How the results depend on the processing

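The number of genes called in cph2Δ against wt moved by over 1.5 times with DESeq2 (548, 345 higher and 203 lower), with the compared libraries alone (128) and, by construction, when genes sharing exon positions were left out (121, 94 higher and 27 lower); leaving out a library gave 64 to 437. RLE scaling gave 285 (80.7% higher), no filter 362 (75.4% higher), robust estimation 335 and the replicate block 275. The block could not be read as pairing, since deviations of same-numbered libraries correlated by 0.23 between wt and cph2Δ but by -0.161 between cph1Δ and cph2Δ; it gave 3, 64 and 13 calls in the other comparisons. Median shifts over all genes stayed within 0.04 in every setting. All 310 genes kept their sign in all 10 alternatives, and of 115 called genes named by rule 32 stayed past the threshold without wt replicate 2, 49 without cph2Δ replicate 2, 67 with the compared libraries alone, 103 with the block and 109 with RLE. Against cph1Δ, 15 genes passed with DESeq2 and 8 with no filter, 4 with the compared libraries alone, and 2 to 26 without single libraries. The difference from the set2Δ effect held 113 genes with DESeq2 and 21 to 97 without single libraries, and 89 with no filter. For wt2 against wt it was 63 with DESeq2, 32 with no filter and 3 to 12 without single libraries. Some uncalled genes changed sign when single libraries were left out, and 4 are given as examples. Without single libraries mfm1 ranged from -0.75 to 0.94, map1 from -1.91 to 0.91, hos2 from -0.41 to 0.09 and mam4 from -0.44 to 0.12. The causes were not tested. With 1 library left in a group, that library is assumed to vary like the others. At 9711537 to 13051467 counts per library, genes under 1 CPM rest on about 10 counts per library or fewer, and intervals cover counting error only.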
